A study of Caenorhabditis elegans with 8 samples.

Results

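The 36 genes described here carry out cell division. They license and copy DNA, supply its nucleotides, drive the cell into mitosis, and build kinetochores, condensin, centrosomes and the spindle midzone. They were chosen by name, as the entries of the deposited count table whose gene name equals a listed member. All 36 were found among the 46739 genes of the table, and all 36 were among the 14772 genes that passed the filter on low counts.

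A cell that divides first loads the MCM helicase onto its origins of replication with the help of the origin recognition complex and CDT-1, then copies its DNA once. Cyclin-dependent kinases and their partners then trigger mitosis, in which condensin compacts the chromosomes, kinetochores bind them to microtubules and centrosomes organise the spindle. In an adult Caenorhabditis elegans hermaphrodite the somatic cells no longer divide. Dividing cells are those of the germline and of the embryos held in the uterus, and oocytes are stocked with maternal transcripts for the first embryonic divisions.

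The study sequenced RNA of whole hermaphrodites of the wild-type strain N2 under RNA interference (RNAi), which lowers a transcript by means of matching double-stranded RNA. The target was vab-3, a transcription factor gene related to vertebrate Pax6. Treatment began in synchronized young adults, and all worms were collected on day 5 of adulthood. The control group received the empty RNAi vector L4440 (2 libraries, replicate numbers 1 and 3), and the other groups carry the label RNAi against vab-3 isoform A (3 libraries) or isoform C (3 libraries). No label ties the replicates to separate cultures, so p-values measure only the spread between these samples, which could be technical.

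The libraries held between 30289733 and 43364047 counts. The targeted gene vab-3 measured 2.23 and 2.12 CPM (counts scaled to a common library size) in the controls, 4.43, 5.52 and 4.38 CPM in the libraries labelled isoform A, and 4.08, 2.04 and 4.84 CPM in those labelled isoform C. At the level of the whole gene the values go against the labels, since 5 of the 6 RNAi libraries lay above both controls. The differences from control were not called (edgeR, adjusted p = 0.121 for isoform A and 0.700 for isoform C), and counts per gene do not separate the isoforms. The groups are therefore named by label, as A-labelled and as C-labelled libraries. A-labelled libraries 2 and 3 stood apart from the other 6, at 64.6 and 54.7 on a first principal component on which the others lay at or below 1.06. Markers of the germline, eggshell, early embryo, sperm, cuticle, muscle, intestine and neurons were all detected, as the label whole worm requires, and none of the listed markers was at 0 in all libraries. In whole-worm RNA, fewer cells of a type and less RNA per cell cannot be told apart.

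All 36 genes were abundantly read, with 2337 to 55364 counts per gene and library. Per length, as RPKM (the authors' values, scaled by library size and gene length, which allow levels of different genes to be compared), the control means ran from 37.1 to 790 RPKM, with a median of 147 RPKM. The highest was cyb-3, a B-type cyclin gene, at 790 ± 23.0 RPKM (mean ± SD, n = 2). It was followed by pcn-1, which encodes the sliding clamp PCNA, at 628 ± 19.8 RPKM and by rnr-2, which encodes the small subunit of ribonucleotide reductase, at 591 ± 13.5 RPKM. A second B-type cyclin gene, cyb-1, stood next at 348 ± 17.98 RPKM, ahead of mcm-7 at 295 ± 1.01 RPKM and rnr-1, the large subunit of ribonucleotide reductase, at 276 ± 7.502 RPKM. The other replicative helicase genes stood lower than mcm-7, with mcm-3 and mcm-4 at 175 ± 0.492 and 171 ± 4.35 RPKM, while mcm-2, mcm-5 and mcm-6 measured 201 ± 2.34, 202 ± 11.9 and 197 ± 5.36 RPKM, which differ by less than the SD of mcm-5. The lowest levels were those of the centriole genes sas-4 (37.1 ± 0.563 RPKM) and zyg-1 (41.4 ± 0.801 RPKM) and of the licensing factor gene cdt-1 (38.1 ± 3.63 RPKM). The order of sas-4 and cdt-1 is not resolved, since they differ by less than the SD of cdt-1.

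These genes varied little between libraries of a group. The SD of log2 CPM within groups had a median of 0.054 over the 36 genes, against 0.18 over all genes tested and 0.068 over the 3013 genes with a control mean of at least 80 CPM, a level chosen after the values were seen because all 36 genes lie above it. It was smallest for mcm-4 (0.012) and largest for the centromeric histone gene hcp-3 (0.13) and the kinetochore gene ndc-80 (0.11). Between groups the differences were small as well: no gene differed from control by more than 0.25 on the log2 scale in either RNAi group.

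The comparison of A-labelled with control libraries asked whether worms labelled isoform A RNAi carry different amounts of these transcripts. Most licensing genes (7 of 8), all 3 genes of chromosome compaction and rnr-1 had fitted differences slightly above 0, and most genes of mitotic entry (6 of 8) and all of the centrosome (5) and midzone (2) slightly below it. In all, 17 genes lay higher (54.5% of all genes) and 19 lower (45.5%), with a median log2 difference of -0.019 against 0.034 over all genes tested and -0.064 over the genes of at least 80 CPM. edgeR called 0 of the 36 genes, as it called 0% of all genes tested. An unadjusted edgeR p below 0.05 was held by 3 of the 36 genes as higher (13.7% of all genes) and by 6 as lower (12.3%, and 28.7% of the genes of at least 80 CPM). A p that misses the threshold does not show that levels were equal. All A-labelled libraries lay above both controls for 8 genes (21.5% of all genes) and below both for 12 (22.2%). Of the 3013 genes of at least 80 CPM, 42.6% lay below both controls, so 12 of 36 is below their share. DESeq2 called 1 gene as higher (5.23% of all genes) and 1 as lower (2.55%). The count of 6 lower genes was 2 without control library 1 and 1 without A-labelled library 2.

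The comparison of C-labelled with control libraries put the same question to the other treatment. All licensing, fork, nucleotide supply, condensin and topoisomerase genes had fitted differences above 0, though those of orc-2 (0.0025) and div-1 (0.02) were close to it. Many of the mitotic kinase and kinetochore genes stood close to control. The cyclin genes cyb-1 and cyb-3 lay above both controls in all C-labelled libraries, and the centrosome gene tac-1 stood lower. Here 24 genes lay higher (46.5% of all genes) and 12 lower (53.5%), with a median log2 difference of 0.062 against -0.014 over all genes tested and -0.016 over those of at least 80 CPM. edgeR called 0 of the 36 genes, against 0.0609% of all genes as higher and 0.0338% as lower. An unadjusted edgeR p below 0.05 was held by 9 of the 36 genes as higher (4.32% of all genes) and by 1 as lower (3.02%). All C-labelled libraries lay above both controls for 17 of the 36 genes, against 12.7% of all genes and 15.2% of those of at least 80 CPM, and below both for 3 (15.5% of all genes). DESeq2 called 2 as higher (0.833% of all genes) and 0 as lower (0.217%). Leaving out control library 3 or 1 made the count of 9 into 5 or 6, and it was 14 without A-labelled library 2. That library enters through the shared filter, scaling and estimate of spread, and the median without it was 0.073. Both comparisons use the same 2 controls, so they are not independent of each other.

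**Figure D1:**
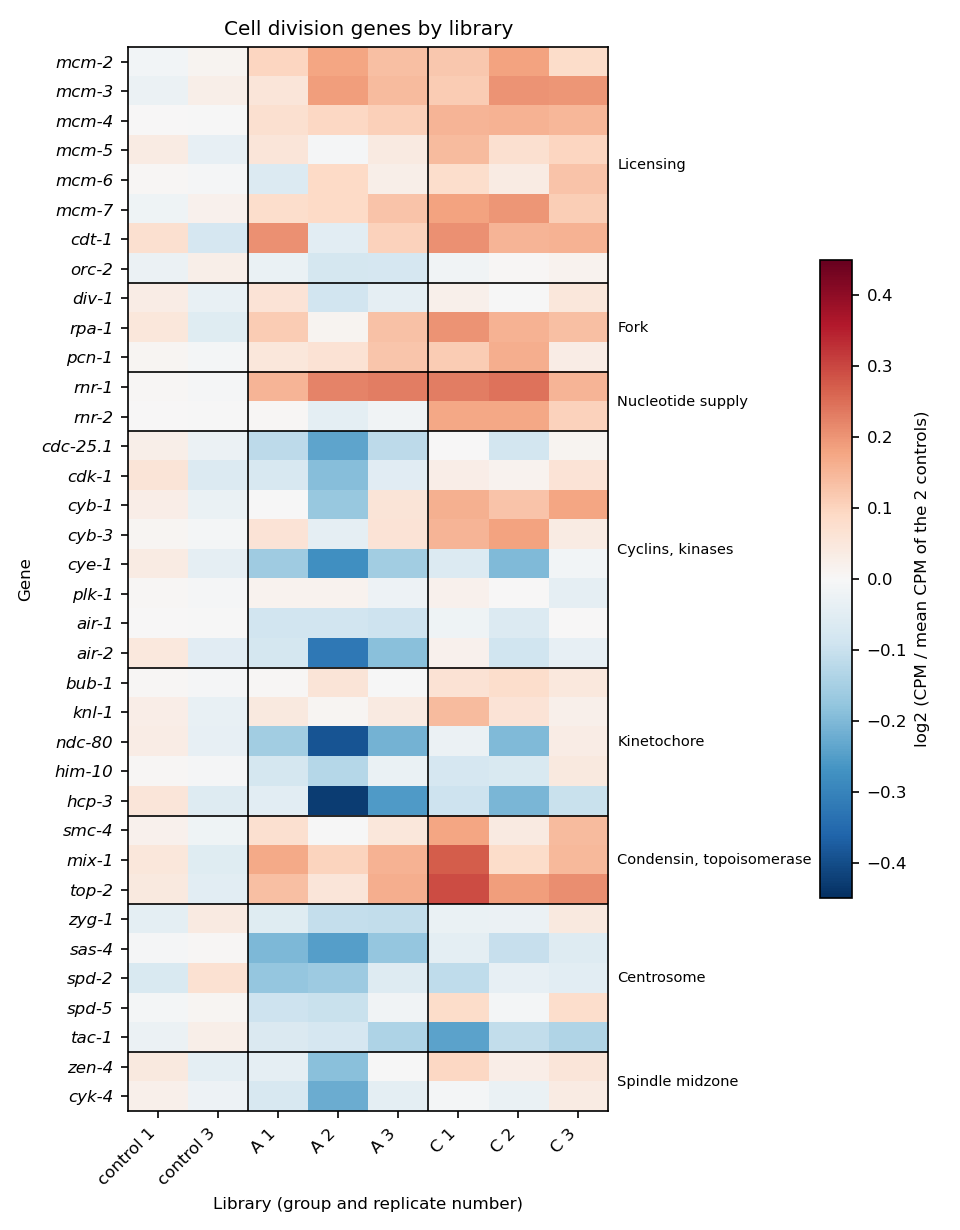
Level of each of the 36 genes (rows, grouped by step) in each library (columns), as log2 of its CPM over the mean CPM of the 2 controls, with red above and blue below the control mean. The rows of mcm-2, mcm-3, mcm-4, mcm-7, rnr-1, mix-1 and top-2 are red in all 6 RNAi libraries, and the centrosome rows are blue in the A-labelled libraries. No gene passed the edgeR test.

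The step that licenses origins comprised the helicase genes mcm-2 to mcm-7, the loading factor gene cdt-1 and the origin recognition gene orc-2. Their mean log2 difference from the control mean was 0.059, 0.064 and 0.077 in A-labelled libraries 1, 2 and 3 and 0.12, 0.13 and 0.12 in the C-labelled libraries, while the controls lay at 0.0052 and -0.0052. Every RNAi library thus lay above both controls on this mean. Fitted differences had medians of 0.09 for A-labelled and 0.14 for C-labelled libraries, with 7 and 8 of 8 genes higher and 0 called. Under all alternative settings tried, these medians stayed between 0.048 and 0.11 and between 0.12 and 0.16.

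Within this step, mcm-4 (chromosome I, 2318291 to 2321817) was the steadiest. It measured 451 and 449 CPM in the controls, 473, 481 and 485 CPM in the A-labelled and 501, 502 and 499 CPM in the C-labelled libraries, so that the 3 groups did not overlap. Relative to control, its log2 level was 0.09 ± 0.04 (SE) in A-labelled (edgeR, adjusted p = 0.207) and 0.15 ± 0.04 in C-labelled libraries (edgeR, adjusted p = 0.427). DESeq2 called the latter, at 0.16 ± 0.04 with an adjusted p of 0.0221. The gene mcm-7 (chromosome V, 4347166 to 4349768) measured 712 and 731 CPM in the controls, 762, 769 and 788 CPM in the A-labelled and 817, 828 and 779 CPM in the C-labelled libraries. Its differences were 0.10 ± 0.05 and 0.16 ± 0.05 (edgeR, adjusted p = 0.235 and 0.466). The gene mcm-3 (chromosome V, 15056719 to 15059599) measured 461 and 477 CPM in the controls, 487, 535 and 517 CPM in the A-labelled and 507, 539 and 538 CPM in the C-labelled libraries, with differences of 0.13 ± 0.06 and 0.17 ± 0.06 (edgeR, adjusted p = 0.191 and 0.528). For both genes all RNAi libraries lay above both controls.

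Of the other licensing genes, mcm-2 also lay above both controls in all 6 RNAi libraries, with differences of 0.14 ± 0.05 and 0.13 ± 0.05. The genes mcm-5, mcm-6 and cdt-1 did so in the C-labelled libraries only, at 0.10 ± 0.05, 0.08 ± 0.06 and 0.17 ± 0.08. Their A-labelled values overlapped the controls. The gene orc-2 differed from the rest: it measured 88.2 and 91.3 CPM in the controls, 88.0, 84.9 and 85.2 CPM in the A-labelled and 88.9, 90.2 and 90.7 CPM in the C-labelled libraries. All A-labelled values lay at or just below the lower control, and the C-labelled values lay within the controls' range.

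At the replication fork, rpa-1 (chromosome II, 7664582 to 7667110), which encodes the large subunit of the single-strand binding protein RPA, measured 468 and 435 CPM in the controls, 489, 456 and 495 CPM in the A-labelled and 519, 503 and 496 CPM in the C-labelled libraries. The C-labelled libraries lay above both controls (0.16 ± 0.06, edgeR, adjusted p = 0.553), and A-labelled library 2 overlapped them (0.09 ± 0.06, edgeR, adjusted p = 0.356). The clamp gene pcn-1 (chromosome IV, 4047937 to 4049448) measured 628 and 620.0 CPM in the controls, 647, 653 and 681 CPM in the A-labelled and 675, 699 and 639.6 CPM in the C-labelled libraries. All 6 RNAi libraries lay above both controls, with differences of 0.08 ± 0.05 and 0.10 ± 0.05 (edgeR, adjusted p = 0.362 and 0.750). The gene div-1 (chromosome III, 10245056 to 10248559), which encodes a subunit of DNA polymerase alpha, measured 115 and 109.6 CPM in the controls, 117, 105 and 109 CPM in the A-labelled and 114, 112 and 116 CPM in the C-labelled libraries. Its groups overlapped throughout, with differences of -0.02 ± 0.06 and 0.02 ± 0.06.

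Ribonucleotide reductase makes the deoxyribonucleotides for replication, and its subunit genes are given in turn. The large subunit gene rnr-1 (chromosome III, 9225339 to 9228798) measured 713 and 708 CPM in the controls, 790.4, 829 and 833 CPM in the A-labelled and 834, 842 and 789.8 CPM in the C-labelled libraries. All 6 RNAi libraries lay above both controls by a clear margin, at 0.20 ± 0.05 for A-labelled (edgeR, adjusted p = 0.121) and 0.21 ± 0.05 for C-labelled libraries (edgeR, adjusted p = 0.356). DESeq2 called rnr-1 in both comparisons, with adjusted p of 0.0140 and 0.00829. The small subunit gene rnr-2 (chromosome III, 4093308 to 4094921) measured 816 and 816 CPM in the controls, 819, 792 and 807 CPM in the A-labelled and 919.6, 922 and 878 CPM in the C-labelled libraries. It lay at the control level in the A-labelled libraries (-0.02 ± 0.05, edgeR, adjusted p = 0.842) and above it in all C-labelled libraries (0.15 ± 0.05, edgeR, adjusted p = 0.491).

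**Figure D2:**
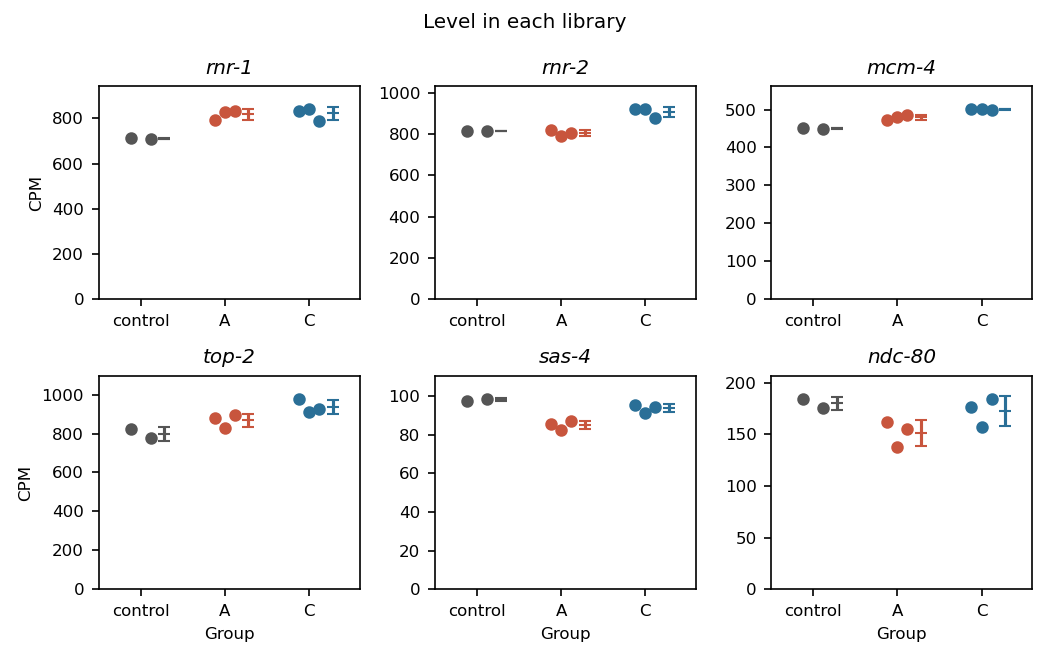
Level in CPM of 6 genes in each library of the control, A-labelled and C-labelled groups, with the group mean and SD beside the points (n = 2, 3 and 3). The levels of rnr-1 lie above both controls in all 6 RNAi libraries, those of rnr-2 in all C-labelled libraries, and those of sas-4 are lowest in the A-labelled group. None of these differences passed the edgeR test.

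Condensin and topoisomerase II fold and untangle chromosomes before they separate. The topoisomerase gene top-2 (chromosome II, 11875148 to 11880588) measured 826 and 775 CPM in the controls, 879, 830.4 and 897 CPM in the A-labelled and 979.8, 911 and 925 CPM in the C-labelled libraries. All RNAi libraries lay above both controls, and all C-labelled libraries above all A-labelled ones. The differences from control were 0.12 ± 0.06 and 0.23 ± 0.06 (edgeR, adjusted p = 0.237 and 0.396), the latter being the highest of the 36 fitted differences for the C-labelled libraries. The gene mix-1 (chromosome II, 10824246 to 10841424), whose product serves both condensins and the dosage compensation complex, measured 248 and 230.1 CPM in the controls, 269, 256 and 266 CPM in the A-labelled and 288, 253 and 265 CPM in the C-labelled libraries. It too lay above both controls in all 6, at 0.14 ± 0.06 and 0.17 ± 0.06 (edgeR, adjusted p = 0.204 and 0.609). Its condensin partner smc-4 (chromosome III, 4587501 to 4593124) measured 410.0 and 399.8 CPM in the controls, 426, 404 and 419.7 CPM in the A-labelled and 458, 417 and 447 CPM in the C-labelled libraries. All C-labelled libraries of smc-4 lay above both controls (0.12 ± 0.05, edgeR, adjusted p = 0.697), while A-labelled library 2 lay between them.

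The cyclins and mitotic kinases were not all on the same side of control. On their mean, the A-labelled libraries lay at -0.055, -0.16 and -0.063 and the C-labelled libraries at 0.039, -0.013 and 0.025, against 0.027 and -0.027 in the controls. In the A-labelled libraries 6 of 8 lay lower, with a median of -0.10, and in the C-labelled libraries 5 of 8 lay lower, with a median of -0.015. Of the 3013 genes of at least 80 CPM, 1968 lay lower in the A-labelled and 1729 in the C-labelled libraries. The medians of those 3013 genes were -0.064 and -0.016. edgeR called 0 of the 8 cyclin and kinase genes.

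The gene cye-1 (chromosome I, 6780799 to 6784397), which encodes the S-phase cyclin E, measured 267 and 253 CPM in the controls, 233, 215 and 233 CPM in the A-labelled and 249, 227 and 258 CPM in the C-labelled libraries. The gene cdc-25.1 (chromosome I, 6469386 to 6471922), a phosphatase gene that activates cyclin-dependent kinase in the germline and early embryo, measured 336 and 324 CPM in the controls, 304, 280.2 and 305 CPM in the A-labelled and 331, 312 and 333 CPM in the C-labelled libraries. For both genes all A-labelled libraries lay below both controls, at -0.20 ± 0.07 and -0.16 ± 0.06 (edgeR, adjusted p = 0.134 and 0.142), and the C-labelled libraries overlapped the controls. The Aurora B kinase gene air-2 (chromosome I, 5937195 to 5938881) measured 104 and 97.3 CPM in the controls, 95.3, 80.6 and 88.5 CPM in the A-labelled and 102, 94.6 and 98.1 CPM in the C-labelled libraries. It showed the same arrangement, at -0.19 ± 0.07 for A-labelled libraries (edgeR, adjusted p = 0.157).

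Among the other genes of this step, the Aurora A kinase gene air-1 lay below both controls in all A-labelled libraries (-0.09 ± 0.04). The Polo-like kinase gene plk-1 was the flattest of the 36, with 534 to 557 CPM over all 8 libraries and differences of 0.0034 ± 0.04 and -0.0069 ± 0.04. The B-type cyclin genes cyb-1 and cyb-3 lay above both controls in all C-labelled libraries (0.16 ± 0.07 and 0.12 ± 0.06) and overlapped them in the A-labelled ones. The kinase gene cdk-1, the partner of those cyclins, overlapped the controls in both groups (-0.10 ± 0.06 and 0.04 ± 0.06).

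At the kinetochore, ndc-80, hcp-3 and him-10 had fitted differences below 0 and knl-1 and bub-1 above 0 in both comparisons. The gene ndc-80 (chromosome IV, 10086137 to 10088437), whose product binds microtubules, measured 185 and 176 CPM in the controls, 162, 138 and 156 CPM in the A-labelled and 177, 157 and 185 CPM in the C-labelled libraries. All A-labelled libraries lay below both controls, at -0.25 ± 0.09 (edgeR, adjusted p = 0.135), the lowest fitted difference of the 36 genes. The gene hcp-3 (chromosome III, 9615306 to 9616470), which encodes the centromeric histone CENP-A, measured 133 and 123 CPM in the controls, 124, 95.3 and 107 CPM in the A-labelled and 120.1, 111 and 119.5 CPM in the C-labelled libraries. The C-labelled libraries lay below both controls (-0.13 ± 0.10), A-labelled library 1 overlapped them, and the A-labelled difference was -0.23 ± 0.10 (edgeR, adjusted p = 0.185). Without that library it was -0.34 ± 0.08 (edgeR, adjusted p = 0.0400), in a fit that called 2.38% of all genes as lower and 6.47% as higher, against 0% with it. The genes knl-1 (chromosome III, 8250632 to 8253943) and bub-1, whose products form the outer kinetochore and its checkpoint, gave 0.03 ± 0.05 and 0.02 ± 0.04 in the A-labelled and 0.08 ± 0.05 and 0.06 ± 0.04 in the C-labelled libraries, and bub-1 lay above both controls in all C-labelled libraries. Levels of knl-1 were 279.8 and 268 CPM in the controls, 282, 275 and 282 CPM in the A-labelled and 302, 286 and 278 CPM in the C-labelled libraries, which overlap throughout. The NDC-80 partner gene him-10 lay below both controls in all A-labelled libraries, at -0.08 ± 0.05, and overlapped them in the C-labelled ones, at -0.03 ± 0.05.

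All 5 centrosome genes had fitted differences below 0 in the A-labelled libraries. So did 1968 of the 3013 genes of at least 80 CPM, with a median of -0.064. The mean of the 5 centrosome genes was -0.12, -0.14 and -0.099 in the A-labelled and -0.068, -0.057 and -0.023 in the C-labelled libraries. The controls lay at -0.031 and 0.031. The medians of the fitted differences were -0.09 and -0.07, with 0 called, and the median for A-labelled libraries stayed between -0.14 and -0.067 under all alternative settings tried. The median for C-labelled libraries was 0.0013 without control library 3.

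The centriole assembly gene sas-4 (chromosome III, 8314349 to 8318588) measured 97.8 and 98.8 CPM in the controls, 85.4, 82.7 and 87.0 CPM in the A-labelled and 95.4, 91.5 and 94.5 CPM in the C-labelled libraries. The 3 groups did not overlap. The difference was -0.21 ± 0.05 for A-labelled (edgeR, adjusted p = 0.121) and -0.07 ± 0.05 for C-labelled libraries (edgeR, adjusted p = 0.809), and DESeq2 called the former at -0.22 ± 0.07 with an adjusted p of 0.0225. The gene tac-1 (chromosome II, 14752891 to 14753877), whose product promotes microtubule growth at the centrosome, was lowest in the C-labelled libraries. It measured 99.0 and 103 CPM in the controls, 96.4, 95.8 and 91.6 CPM in the A-labelled and 85.5, 93.5 and 91.9 CPM in the C-labelled libraries. All RNAi libraries lay below both controls, at -0.09 ± 0.06 and -0.16 ± 0.05 (edgeR, adjusted p = 0.310 and 0.546). The gene spd-2 (chromosome I, 8966985 to 8970081), needed to recruit pericentriolar material, measured 336 and 369.9 CPM in the controls, 313, 315 and 339 CPM in the A-labelled and 326, 344 and 342 CPM in the C-labelled libraries. The controls themselves differ by as much as the groups, and both groups overlapped them (-0.13 ± 0.06 and -0.07 ± 0.06). The kinase gene zyg-1, which starts centriole duplication, and the scaffold gene spd-5 lay below both controls in the A-labelled libraries (-0.09 ± 0.05 and -0.07 ± 0.05) and overlapped them in the C-labelled ones.

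The genes zen-4 and cyk-4 encode the subunits of centralspindlin, which bundles the midzone for cytokinesis. The gene cyk-4 (chromosome III, 13768648 to 13771224) measured 359.7 and 349 CPM in the controls, 337, 303 and 344 CPM in the A-labelled and 352, 347 and 364 CPM in the C-labelled libraries. All A-labelled values lay below both controls (-0.11 ± 0.06, edgeR, adjusted p = 0.278). The gene zen-4 (chromosome IV, 6118215 to 6121777) measured 304 and 286 CPM in the controls, 287, 259 and 295 CPM in the A-labelled and 315, 301 and 307 CPM in the C-labelled libraries, and both groups overlapped the controls (-0.07 ± 0.06 and 0.06 ± 0.06).

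**Figure D3:**
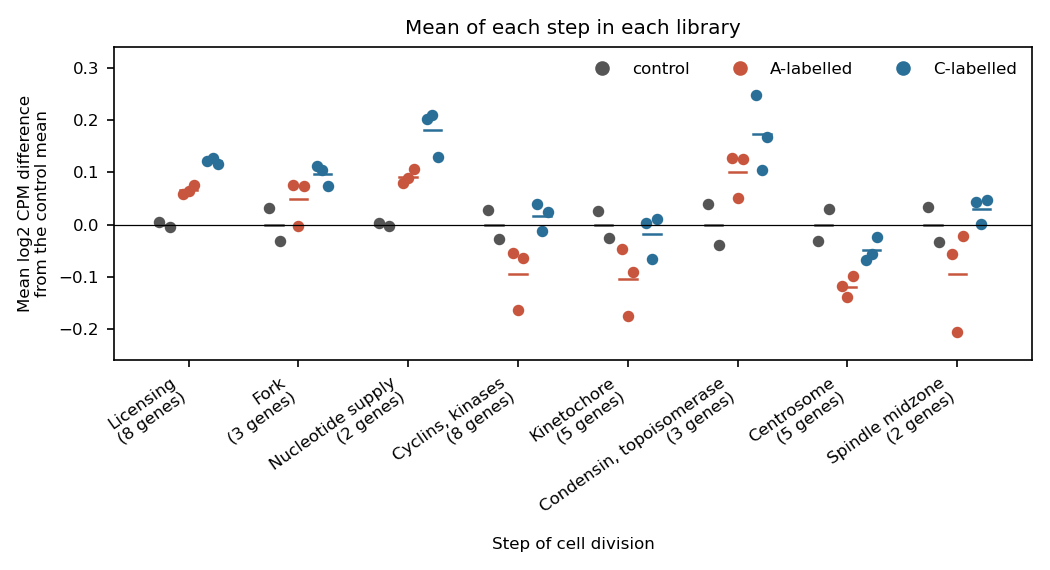
Mean log2 CPM difference from the control mean over the genes of each step, with 1 point per library and a bar at each group mean. All 6 RNAi libraries lie above both controls for licensing, nucleotide supply and condensin. All A-labelled libraries lie below both for cyclins and kinases, kinetochore and centrosome. A-labelled library 2 is the lowest for these steps and for the midzone.

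The gap between licensing and centrosome genes can be followed library by library. The mean of the licensing genes minus that of the centrosome genes, each as log2 difference from control, was 0.18, 0.20 and 0.18 in the A-labelled and 0.19, 0.18 and 0.14 in the C-labelled libraries, against 0.036 and -0.036 in the controls. A-labelled libraries 2 and 3, which stand apart over all genes, did not stand apart from library 1 in this gap. This contrast of steps was chosen after their values had been seen and was not tested.

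The comparison of A-labelled with C-labelled libraries asked whether the treatments differ from each other. Nearly all of the genes stood lower in the A-labelled libraries: 33 of 36 (46% of all genes) and 3 higher (54%). Most genes of at least 80 CPM did so as well, with 2097 of 3013 lower and 916 higher. The median log2 difference was -0.076 over the 36 genes, against 0.024 over all genes tested and -0.06 over those of at least 80 CPM. edgeR called 0 of the 36 genes, against 0.00677% of all genes as lower and 0.0338% as higher. An unadjusted edgeR p below 0.05 was held by 9 as lower (7.59% of all genes, 18.5% of those of at least 80 CPM) and by 0 as higher (11.6%). All A-labelled libraries lay below all C-labelled ones for 15 genes, against 11.2% of all genes and 759 of the 3013 genes of at least 80 CPM, and above them for 0 (12.7% of all genes). The count of 9 was 3 without A-labelled library 2 or C-labelled library 1 and 4 without C-labelled library 3.

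The genes with the lowest values in this comparison were cyb-1 (-0.19 ± 0.06), ndc-80 (-0.19 ± 0.08) and rnr-2 (-0.17 ± 0.04, edgeR, adjusted p = 0.137), of which cyb-1 and rnr-2 did not overlap between the groups. DESeq2 called rnr-2 alone as lower (0.711% of all genes) and 0 as higher (3.78%), with rnr-2 at -0.19 ± 0.05 with an adjusted p of 0.00582. Same-numbered A-labelled and C-labelled libraries deviated from their group means together, but only weakly for number 3 (correlation across genes of 0.22). With the replicate number as a block, edgeR called 6 of the 36 genes as lower (3.85% of all genes) and 0 as higher (7.67%). The share among genes of at least 80 CPM was not worked out for this fit. The 6 genes were ndc-80, rnr-2, cyb-1, air-2, cdc-25.1 and sas-4 (edgeR, replicate block, adjusted p = 0.0236, 0.0328, 0.0334, 0.0430, 0.0489 and 0.0493).

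**Figure D4:**
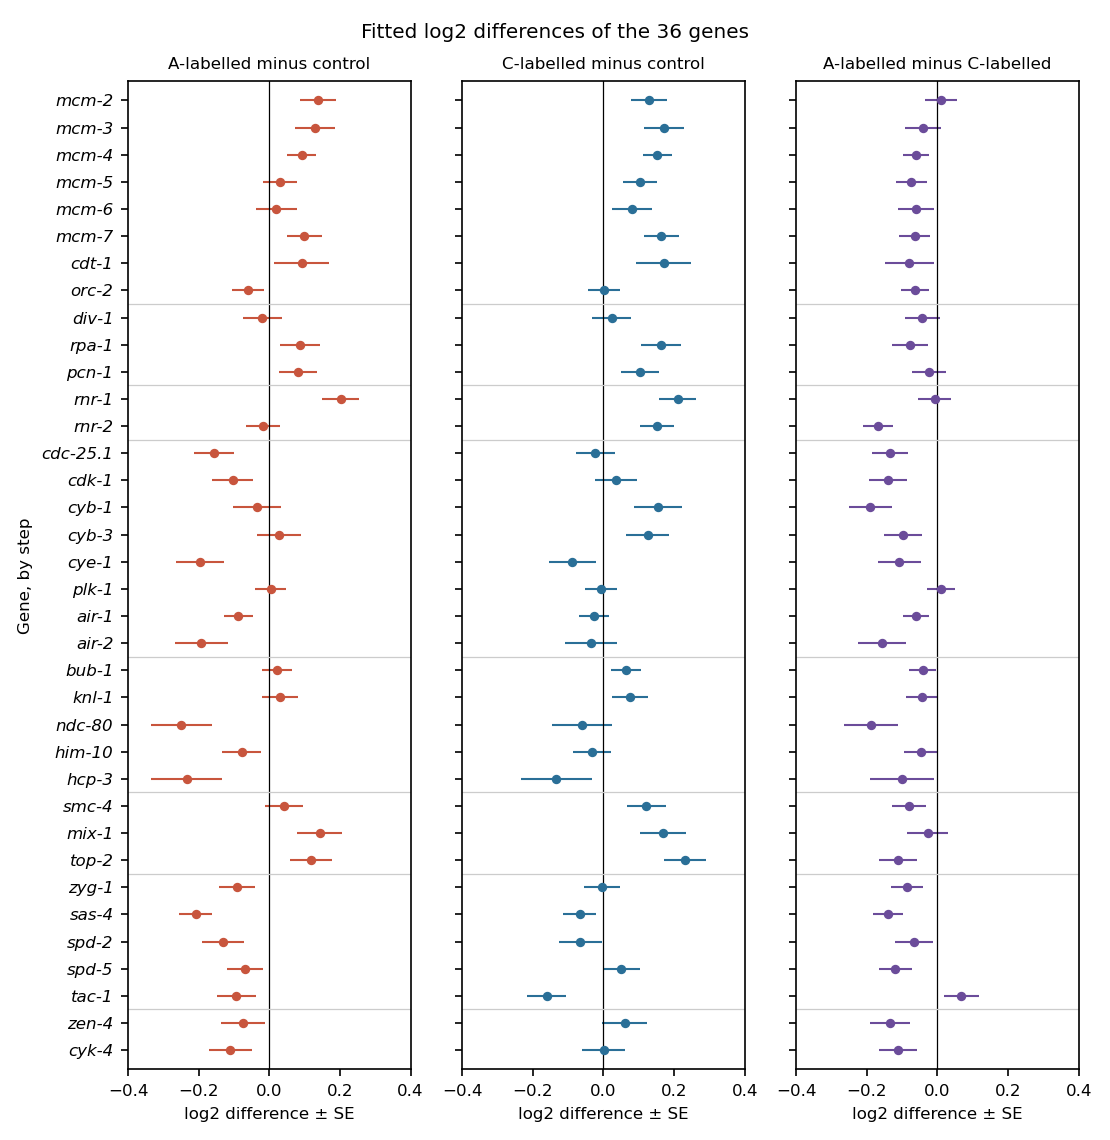
Fitted log2 difference of each of the 36 genes, with its standard error as a bar, for A-labelled minus control, C-labelled minus control and A-labelled minus C-labelled libraries. The differences run from -0.25 to 0.23, and 33 of 36 points lie left of 0 in the third panel.

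Other genes of the same pathways come from lists not used to choose the 36 and not limited to genes of at least 80 CPM. Of all 3013 genes of at least 80 CPM, 1968 lay lower in the A-labelled and 1729 in the C-labelled libraries. Over all genes tested, the shares that lay lower were 45.5% and 53.5%. Of 31 further replication genes (origin recognition, GINS, clamp loader, polymerase, primase and ligase genes), 29 lay lower in the A-labelled libraries, with a median log2 difference of -0.13, and 19 lay lower in the C-labelled libraries, with a median of -0.02. The GINS gene psf-1 had log2 differences of -0.29 and -0.15, the clamp loader gene rfc-3 had -0.24 and -0.05, and the topoisomerase I gene top-1 had -0.02 and 0.18. Of the 31 genes, edgeR called 0 in either comparison, and the difference between the lists was not tested.

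Of 33 other cell cycle regulators, 26 lay lower in the A-labelled and 21 in the C-labelled libraries, with medians of -0.09 and -0.04. Among them, plk-3 had differences of -0.23 and -0.14 and the phosphatase gene cdc-14 had -0.18 and -0.12, while the scarcely read wee-1.1, at 1.02 CPM in the controls, had 0.48 and 0.96. Of 28 other kinetochore, cohesin and condensin genes, 21 and 13 lay lower, with medians of -0.11 and 0.01. The kinetochore gene kbp-1 had -0.33 and -0.14, the kinesin gene klp-19 had -0.23 and -0.11, and the cohesin gene smc-3 had 0.12 and 0.24. Of 22 other centrosome and cytokinesis genes, 17 and 10 lay lower, with medians of -0.05 and 0.02. The centriole gene sas-5 had -0.28 and -0.13, the centrosomal phosphatase subunit gene rsa-1 had -0.24 and -0.09, and the anillin gene ani-2 had -0.15 and -0.08. edgeR called 0 genes of these 3 lists in any comparison.

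Histone genes could be read less firmly. Of 16 histone genes tested, a list that holds linker histones and the replication-independent variants htz-1, his-71 and his-72 beside the histones made in S phase, 12 lay higher in the A-labelled and 7 in the C-labelled libraries, with medians of 0.22 and -0.07 and 0 called. The replication-dependent histone genes are near-identical copies and carry few counts in these libraries, as his-3 does at 0.688 CPM in the controls, so single members are uncertain. The linker histone genes hil-2 and hil-3 had log2 differences of 0.32 and 0.36 in the A-labelled and 0.15 and 0.16 in the C-labelled libraries.

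**Figure D5:**
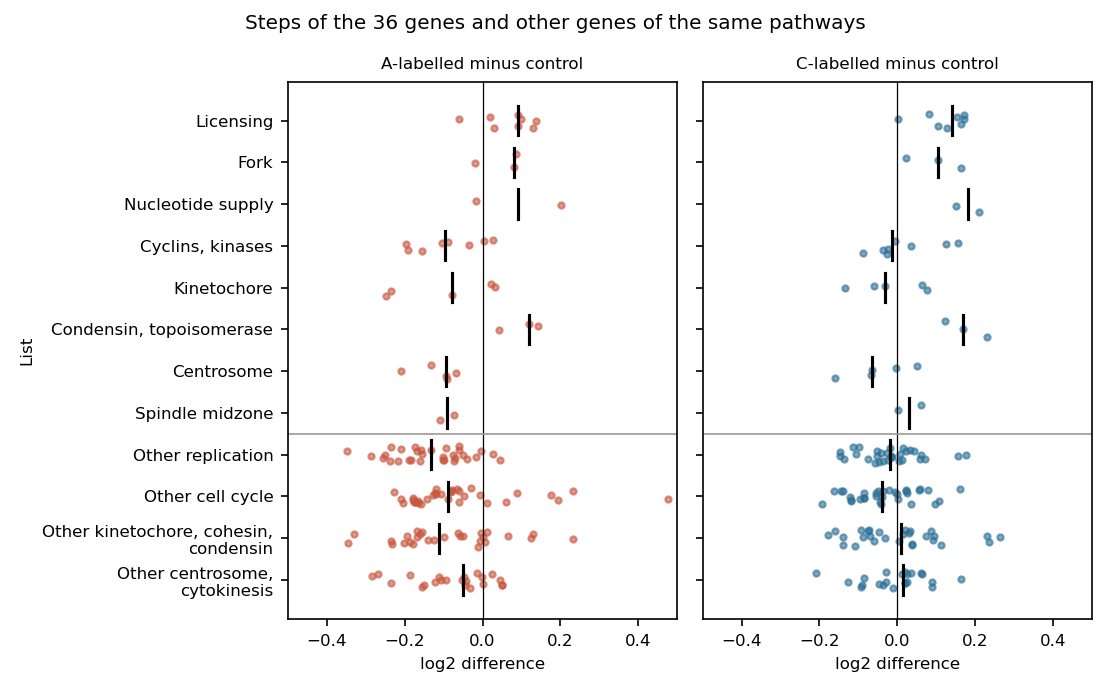
Log2 difference from control of the genes of each step (above the grey line) and of other genes of the same pathways (below it), with 1 point per gene and a black bar at each median, for A-labelled and C-labelled libraries. 1 gene of the other cell cycle list (wee-1.1, at 0.96) lies beyond the axis of the C-labelled panel. The medians of licensing, nucleotide supply and condensin genes lie right of 0 in both panels, and those of the other pathway lists lie left of 0 for the A-labelled libraries.

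Markers of the tissues that hold dividing cells are set beside these values. Of 20 germline and oocyte genes, 15 lay lower in the A-labelled libraries, with a median of -0.15, and 16 in the C-labelled libraries, with a median of -0.03. Of the 3013 genes of at least 80 CPM, 1968 and 1729 lay lower, with medians of -0.064 and -0.016. The mean of the 20 germline and oocyte genes was -0.089, -0.17 and -0.13 in the A-labelled libraries. In the C-labelled libraries it was -0.042, -0.064 and -0.026. Summed over the list, they gave 13838 to 14049 CPM in the controls, 13041 to 13446 CPM in the A-labelled and 13645 to 13734 CPM in the C-labelled libraries. The 6 genes of germline stem cells and their regulators gave 1057 to 1076, 996 to 1033 and 1043 to 1090 CPM. Summed over the 36 division genes, the level was 13837 to 14070 CPM in the controls, 13841 to 14406 CPM in the A-labelled and 14793 to 15133 CPM in the C-labelled libraries. In sum, the C-labelled libraries thus lay above both controls for the 36 genes and below both for the 20 germline and oocyte genes. Their sums for the germline stem cell list lay on both sides of the controls. The 8 eggshell genes gave 9520 to 10061 CPM in the controls, 9317 to 9512 CPM in the A-labelled and 9681 to 9942 CPM in the C-labelled libraries. For these genes the C-labelled libraries lay between the controls.

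Early embryo markers had higher sums in all RNAi libraries, with 48.3 to 53.03 CPM in the controls, 75.0 to 85.4 CPM in the A-labelled and 85.8 to 91.2 CPM in the C-labelled libraries. Of 8 tested, 8 lay higher in the A-labelled and 7 in the C-labelled libraries, with medians of 0.64 and 0.67, and edgeR called 1 of them, vet-2, as higher in the C-labelled libraries. Sperm genes gave 8.86 to 9.77, 9.03 to 85.4 and 6.77 to 37.5 CPM, cuticle genes 487 to 509, 980.2 to 2221 and 429 to 979 CPM, and muscle genes 1000.2 to 1195, 1656 to 3020 and 1060.2 to 1519 CPM in the same order. A-labelled library 1 had the lowest of these sums in its group, and the highest was in library 3 for sperm genes and in library 2 for cuticle and muscle genes. The part of these tissues in the differences of the division genes was not tested.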

How the data were processed

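Total RNA of whole worms was isolated with QIAzol and made into libraries with the TruSeq RNA kit v2, per the labels' protocols. This kit does not mark the strand. The tools named, per the submitters' processing notes, are bcl2fastq 1.8.4, TopHat2 2.1.0 and featureCounts 1.5.0, with build WBcel235. Their settings and the annotation release are not given in the sources consulted. The authors deposited raw counts per gene and RPKM values, the latter used here only to compare levels between genes. The deposited RPM table was not used.

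Counts of 8 libraries (2 control, 3 A-labelled, 3 C-labelled) were filtered by edgeR's expression filter, scaled by TMM and fitted in 1 model with 3 groups, using edgeR 4.0.16 (robust quasi-likelihood test) in R 4.3.3. Two-sided p-values were adjusted by Benjamini-Hochberg over all 14772 genes, separately for the 3 comparisons, and 0.05 was the threshold. Standard errors are the size of the log2 difference over the square root of F. DESeq2 1.42.0 was an alternative. Log2 CPM values by library used a prior count of 2. The fits were tested on simulated counts, with changes put into genes drawn at random from all genes tested. Changes of 0.2 on the log2 scale were called for 0, 0 and 1 of 100 genes in the 3 comparisons. Changes of 1 were called for 40, 40 and 58 of 100. The median standard error against control in A-labelled libraries was 0.18 over all genes tested and 0.055 over the 36 genes. The simulation therefore does not measure how often such changes in the 36 genes would be called.

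The 36 genes, the pathway and marker lists and the alternatives were chosen with earlier results of these data known, so counts over the lists are descriptions. Within each step, the 3 genes with the smallest unadjusted edgeR p against control are given by library. From each pathway list the 3 genes with the smallest such p are named. The comparison with genes of at least 80 CPM was added after the values were seen. Coordinates are those of the reference annotation of the same build. Exons of 15 of the 36 genes overlap another gene, by at most 4.73% of their length, and such reads cannot be told apart.

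No libraries were merged, since replicates differed beyond sampling noise, with at least 17.6 for chi-square over its degrees of freedom. Replicate numbers of A-labelled and C-labelled libraries were taken to pair them in the block fit. Deviations from the group means correlated across genes at 0.61, 0.43 and 0.22 for numbers 1, 2 and 3. The differently numbered A-labelled library 3 and C-labelled library 2 correlated at 0.30, above number 3. The other differently numbered pairs of A-labelled and C-labelled libraries correlated negatively. Deviations sum to 0 within each group, so these values are not independent of the same-numbered ones. Those of the 2 controls mirror each other exactly. Same-numbered controls correlated at 0.22 and 0.025 with A-labelled libraries and at 0.32 and 0.20 with C-labelled ones. The pairing rests on the data alone, as the labels leave the meaning of the numbers unstated, and is weak for number 3. Controls, with numbers 1 and 3, were not taken as paired with either group, and the fit with the block, which ties them to the same numbers, is only an alternative for comparisons with control. A planned search for promoter motifs was not run, since no sequence was used here.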

Additional observations from a re-analysis of the deposited data

How the results depend on the processing

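Between A-labelled and control libraries, edgeR's count of 0 genes became 1149 with DESeq2, 8 with no filter on low counts and 546 with the replicate number as a block, and ran from 0 to 1303 when each library was left out, the highest without A-labelled library 1. The count among the 36 genes was 2 with DESeq2 and 0 to 1 with a library left out. Their median log2 difference ran from -0.041 to 0.0088 with a library left out, above 0 only without A-labelled library 2, and was 0.017 after removal of both A-labelled libraries 2 and 3, which leaves a lone library assumed to vary like the others.

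Between C-labelled and control libraries, the count of 14 genes became 155 with DESeq2, 23 with only these 2 groups, 102 with the replicate block, 25 after that removal and 1 to 15 with a library left out. It was 2 and 1 without control libraries 1 and 3, and 3, 3 and 6 without C-labelled libraries 1, 2 and 3. Among the 36 genes it was 2 with DESeq2 and 0 to 0 with a library left out, and their median ran from 0.049 to 0.091.

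Between A-labelled and C-labelled libraries, the count of 6 genes became 663 with DESeq2, 12 with no filter, 1 with only these 2 groups, 1702 with the replicate block and 1 to 748 with a library left out. It was 748 without A-labelled library 1 and 1 without any of the other 7. Among the 36 genes it was 1 with DESeq2, 6 with the block and 0 to 0 with a library left out, and their median ran from -0.10 to -0.059.

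Other scaling factors changed the sign of at most 2 of the 36 genes in a comparison, and without C-labelled library 2 the split of higher and lower genes for C-labelled libraries was 31 and 5. Single genes changed sign without passing the test. Against control in A-labelled libraries, div-1 was 0.0021 with the block, -0.063 to 0.025 with a library left out and 0.077 without A-labelled libraries 2 and 3. Likewise rnr-2 was -0.030 to 0.0076 and 0.020, and knl-1 -0.0054 to 0.060. In C-labelled libraries, cdc-25.1, air-2 and ndc-80 were 0.012, 0.0099 and 0.0051 with the block. With a library left out, cdc-25.1 ran from -0.052 to 0.023, air-2 from -0.088 to 0.015, ndc-80 from -0.11 to 0.020, div-1 from -0.012 to 0.056, spd-2 from -0.13 to 0.0013 and cyk-4 from -0.025 to 0.031. Between the RNAi groups, rnr-1 ran from -0.043 to 0.016 and mix-1 from -0.089 to 0.013, and div-1, hcp-3 and mix-1 were 0.042, 0.090 and 0.0028 without A-labelled libraries 2 and 3. The causes were not tested. Each of the 36 genes had at least 2337 counts in every library, while genes such as wee-1.1 and his-3 were scarcely read. The effect of depth was not tested.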
